A study of Rattus norvegicus with 6 samples.

Results

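The genes described here run mitosis, the stage at which a cell that has copied its DNA shares the chromosomes between its daughters and divides. They are the mitotic kinases and cyclins, the spindle and kinetochore proteins, the checkpoint that watches them and the cytokinesis machinery. The list held 45 genes chosen by symbol, and 44 of them were found by gene name among the 34045 genes of the deposited table. Ccnb2 was not matched by name and is not analysed here. All 44 passed the filter on low values, which kept genes averaging 0.5 FPKM or more. FPKM counts sequenced fragments relative to gene length and to a size set for each library.

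RNA came from calvarial bone defects, surgical holes in the skull, of wild type male Sprague-Dawley rats 4 weeks after surgery. In 3 libraries the defect had received the hydrogel labelled CGG and in 3 libraries the hydrogel labelled CGG-Cit. The labels spell out neither name and give no age, and the 6 samples include no unfilled or uninjured bone, so every comparison is of one gel with the other. Nothing in the labels says that replicate libraries are from different animals, and p-values therefore reflect only library-to-library spread, possibly technical. RNA of bone, blood and muscle cells was present, so the samples are mixtures. In them, fewer dividing cells and less mitotic RNA per cell cannot be told apart.

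A dividing cell makes many mitotic proteins afresh in each cycle. Their genes are largely silent in resting cells and are switched on together after DNA replication, in good part through the MuvB complex with B-Myb and FOXM1, which acts at a short promoter element named the cell cycle homology region. The anaphase-promoting complex then marks many of the proteins for destruction as the cell leaves mitosis. In healing bone the cycling cells can include stromal and osteoblast precursors, vessel cells, macrophages and, where marrow is present, the precursors of blood cells.

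Mitotic genes were lower in the CGG-Cit defects almost as a block. Of 44 members 40 fell and 0 rose with limma at an adjusted p under 0.05, where 9.78% of the 15965 genes tested were called lower and 7.75% higher. At an unadjusted p under 0.05, 43 were lower and 0 higher, and limma's voom on reads recovered from the table called 40 lower and 0 higher. The share of all genes at an unadjusted p under 0.05 was not counted, for this or later counts. The log2 fold change, always CGG-Cit minus CGG on log2(FPKM + 1), was below 0 for all 44 and had a median of -1.03, beside 0.002 over all genes tested. In mean FPKM the 40 genes were 1.68-fold to 2.67-fold higher in CGG. In 43 of 44 members every CGG-Cit library lay below every CGG library, a pattern that 22.1% of all genes tested showed in this direction. Each member was backed by 76 to 11292 fragments in a library.

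The members also ranked the libraries in nearly the same order. CGG 3 was the highest of the 6 libraries for 42 members, and CGG 2 the lowest CGG library for 43. CGG-Cit 3 was the highest CGG-Cit library for 43 members, and CGG-Cit 2 the lowest for 32. Summed over the members, FPKM came to 896, 742 and 1024 for CGG 1, 2 and 3, and to 370.2, 327 and 567 for CGG-Cit 1, 2 and 3. The highest CGG-Cit library stayed below the lowest CGG library, and the median member stood at 0.404, 0.357 and 0.634 of its CGG mean in CGG-Cit 1, 2 and 3.

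**Figure D1:**
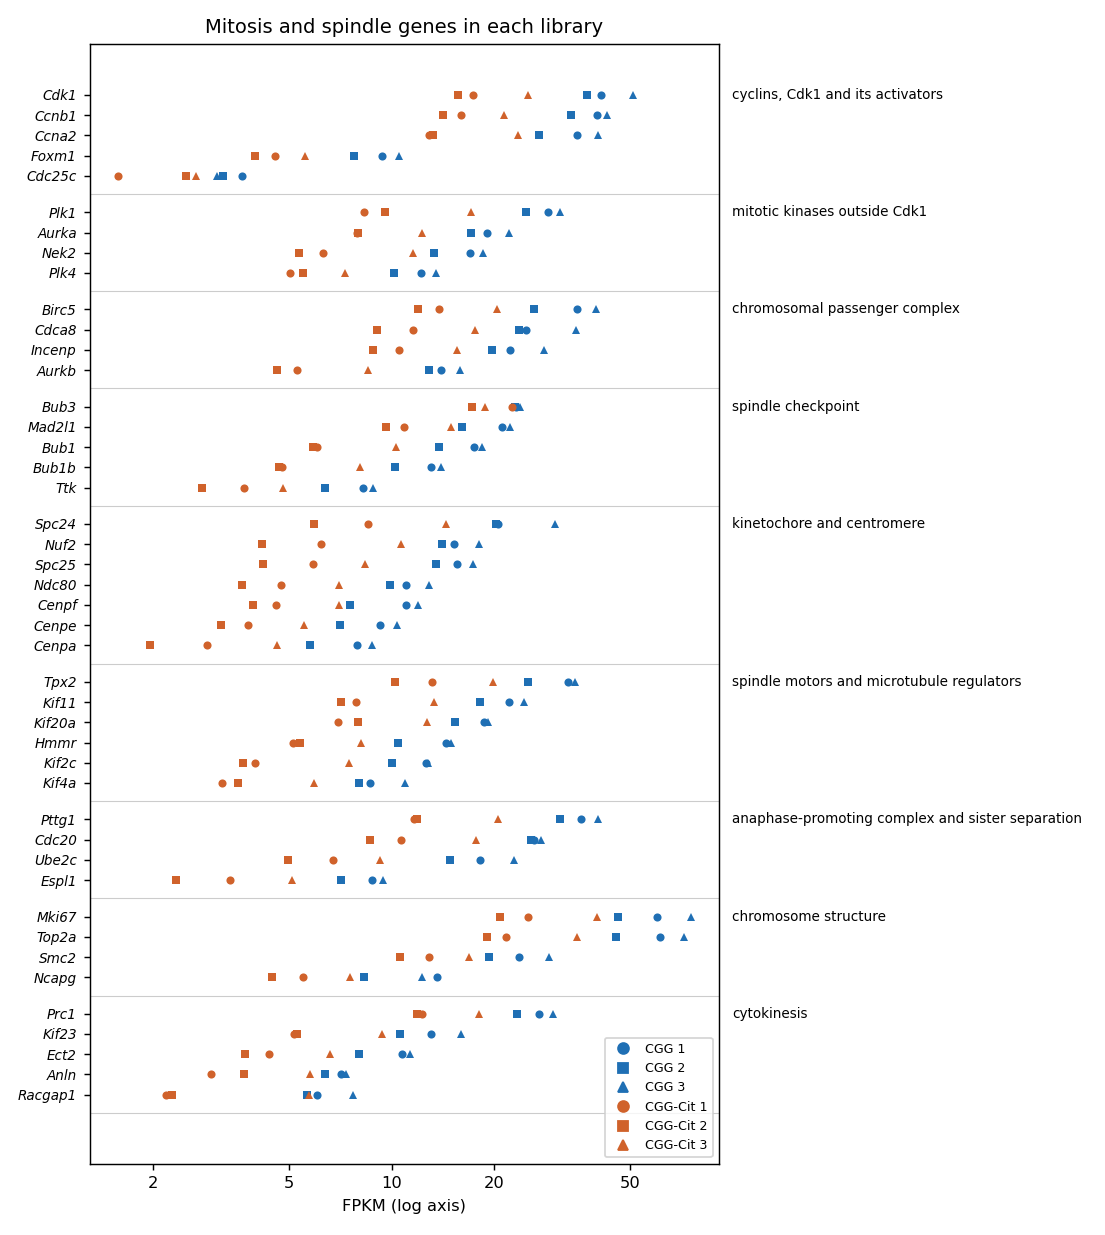
FPKM of each of the 44 mitosis and spindle genes (rows, grouped by role) in each library (points, log axis), blue for CGG and orange for CGG-Cit. The 3 CGG-Cit points lie left of the 3 CGG points in 43 rows, Racgap1 being the exception, and Bub3 shows the smallest fold change.

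The number of calls depended on the libraries used. Without CGG 1, 2 or 3, 2, 10 and 0 members passed, beside 4.17%, 3.12% and 1.19% of all genes called lower. At an unadjusted p under 0.05, 41 members were lower without CGG 3, a count with no share of all genes beside it. Without CGG-Cit 1, 2 or 3, 1, 1 and 42 passed, beside 3.06%, 1.56% and 10.2%. Cdk1 and Ccnb1 were those that passed without CGG 1, and Ccnb1 the one without CGG-Cit 1 or without CGG-Cit 2. After rescaling to TPM 25 members fell (5.94% of all genes), and without the filter on low values 20 did (5.1%). In the other 7 fits 39 or 40 fell, where the share of all genes called lower was 9.46% and 9.73% with pseudocounts of 0.1 and 0.5, 9.72% with median-of-ratios scaling, 9.71% with quantile normalization, 11.6% with a minimum mean of 2 FPKM, 9.96% with voom and 6.61% with a replicate block. All 44 values were below 0 in each of these 15 fits. The voom fit used the library sizes implied by the deposited FPKM. Median-of-ratios scaling left the members' median at -1.03, as in the main fit. Both fits therefore say little about other scalings of the libraries.

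Since the members moved together, promoters are shown here for what they share. RefSeq windows of 300 bases (build GRCr8, 250 bases before to 50 after the start as that table sets it) were found for 37 of the 44, the others being Ccna2, Foxm1, Aurkb, Incenp, Tpx2, Ube2c and Racgap1. They were searched on both strands for the cell cycle homology region, written TTTGAA or TTCGAA, and for the CCAAT box, which binds the factor NF-Y. The third motif was the E2F site, a control element of genes of DNA replication, with the letters TTGGCGC, or TTCGCGC, or TTCCCGC. The windows that follow are of the 4 members highest in mean FPKM, among those given with all 6 values, that hold both the homology region and a CCAAT box: Mki67 (chr1:199952544-199952843, minus strand), Top2a (chr10:84473044-84473343, minus strand), Cdk1 (chr20:19265043-19265342, plus strand) and Pttg1 (chr10:28406277-28406576, minus strand). Capitals mark these motifs on either strand, E2F letters stay in lower case, and in Mki67 a homology region and a CCAAT box overlap.
Mki67: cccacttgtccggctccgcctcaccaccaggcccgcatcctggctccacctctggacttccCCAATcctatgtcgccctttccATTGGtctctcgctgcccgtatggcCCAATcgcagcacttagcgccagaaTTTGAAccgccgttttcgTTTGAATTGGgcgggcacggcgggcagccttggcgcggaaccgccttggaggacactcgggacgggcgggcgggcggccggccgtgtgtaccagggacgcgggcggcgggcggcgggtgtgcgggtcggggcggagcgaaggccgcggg
Top2a: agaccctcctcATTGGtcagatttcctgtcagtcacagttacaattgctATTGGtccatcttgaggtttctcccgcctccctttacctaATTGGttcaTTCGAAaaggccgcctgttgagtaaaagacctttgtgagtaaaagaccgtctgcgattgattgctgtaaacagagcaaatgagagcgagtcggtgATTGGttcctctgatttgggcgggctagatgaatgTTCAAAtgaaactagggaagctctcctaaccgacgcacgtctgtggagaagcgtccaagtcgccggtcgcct
Cdk1: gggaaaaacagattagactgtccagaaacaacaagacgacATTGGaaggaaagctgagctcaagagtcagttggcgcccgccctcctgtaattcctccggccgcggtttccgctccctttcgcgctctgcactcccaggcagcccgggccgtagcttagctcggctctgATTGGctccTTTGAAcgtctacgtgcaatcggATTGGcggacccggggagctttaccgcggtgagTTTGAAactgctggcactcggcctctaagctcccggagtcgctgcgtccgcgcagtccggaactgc
Pttg1: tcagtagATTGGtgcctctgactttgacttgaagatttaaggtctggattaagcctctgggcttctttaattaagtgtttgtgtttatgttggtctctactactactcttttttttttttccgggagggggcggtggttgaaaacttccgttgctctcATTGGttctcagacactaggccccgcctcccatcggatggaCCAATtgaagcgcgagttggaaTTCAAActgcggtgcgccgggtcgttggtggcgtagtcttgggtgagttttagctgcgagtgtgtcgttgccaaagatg

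A match to the cell cycle homology region stood in 28 of 37 member windows (75.7%), against 18.5% of the 19005 windows of protein-coding genes and 19.5% of all 27457 windows. Within 100 bases before to 50 after the start it was found in 26 members (70.3%), against 7.72% of protein-coding genes. A CCAAT box was present in 28 member windows (75.7%, against 38.4%), and 2 or more in 21 (56.8%, against 12.4%). E2F matches were found in 6 (16.2%, against 9.99%). In Top2a TTCAAA, the homology region read on the other strand, began 22 bases before the start, and in Cdk1 TTTGAA began 16 and 72 bases before it. Such matches are letters in a window, and binding was not measured.

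The same letters were counted in genes of DNA replication, the step before mitosis. Of 32 windows 21 (65.6%) held an E2F match, 6 (18.8%) the homology region and 20 (62.5%) a CCAAT box. The window of Mcm7, a subunit of the replicative helicase and the replication gene of highest mean FPKM among those with an E2F match, is given beside them (chr12:22163129-22163428, minus strand), with E2F matches in capitals. This window also holds 1 homology region match, which begins 241 bases before the start, and 3 CCAAT boxes. They are left in lower case here, except where the CCAAT box beginning 45 bases before the start overlaps E2F matches.
Mcm7: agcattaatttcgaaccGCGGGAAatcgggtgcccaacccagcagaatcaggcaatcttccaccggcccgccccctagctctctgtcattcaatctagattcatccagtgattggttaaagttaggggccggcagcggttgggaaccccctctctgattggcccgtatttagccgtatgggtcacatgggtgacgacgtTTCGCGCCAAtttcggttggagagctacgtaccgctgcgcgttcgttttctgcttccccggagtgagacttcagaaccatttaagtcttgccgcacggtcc

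Change was compared between members with and without each motif, as a description. The median log2 fold change was -0.996 in the 28 members with the homology region and -1.09 in the 9 without it. For the CCAAT box it was -1.05 with and -0.996 without, and for the E2F site -0.98 in the 6 members with it and -1.03 in the 31 without. Bub3, the member that changed least, had 1 match to the homology region and 3 CCAAT boxes. Its window (chr1:195760282-195760581, plus strand), with the capitals used for Mki67, was chosen after its values were seen.
Bub3: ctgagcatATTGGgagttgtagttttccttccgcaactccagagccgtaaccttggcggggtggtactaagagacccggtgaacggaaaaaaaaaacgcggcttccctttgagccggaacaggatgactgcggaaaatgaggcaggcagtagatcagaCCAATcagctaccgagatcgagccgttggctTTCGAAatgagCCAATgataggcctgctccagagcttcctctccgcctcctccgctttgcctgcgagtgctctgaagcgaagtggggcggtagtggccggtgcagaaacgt

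**Figure D2:**
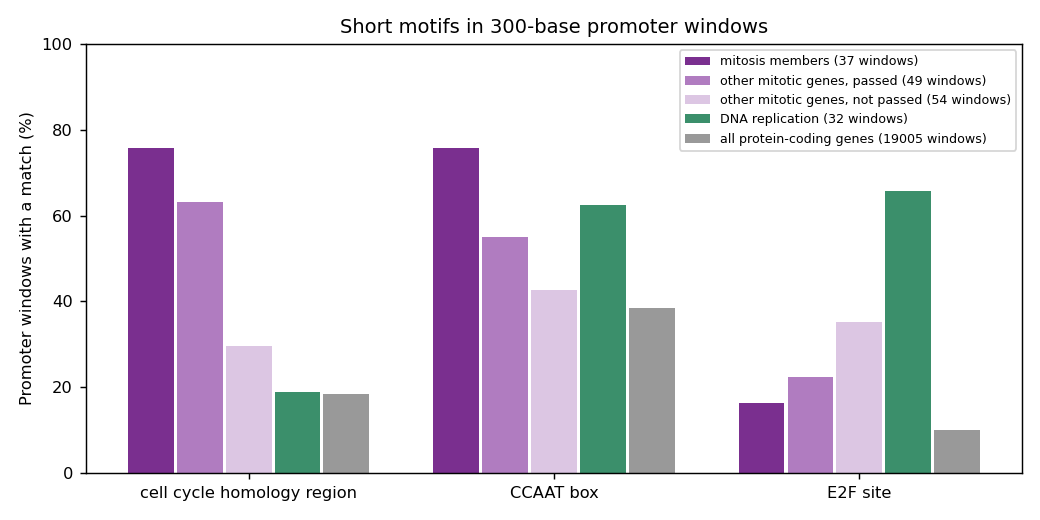
Share of 300-base promoter windows (y axis, percent) that hold the cell cycle homology region, a CCAAT box or an E2F site on either strand, for 5 sets of genes (bars). The homology region stands in 75.7% of member windows and 18.8% of replication windows, and the E2F site in 16.2% and 65.6%.

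Entry into mitosis is driven by Cdk1, the kinase, bound to its cyclins, and 4 of the 5 members of this role fell. Cdk1 (ENSRNOG00000000632, listed at chromosome 20, 20576377 to 20591549) read 41.1, 37.3 and 50.8 FPKM in CGG 1 to 3 and 17.3, 15.6 and 25.1 FPKM in CGG-Cit 1 to 3. No CGG-Cit library reached a CGG library, and Cdk1 fell by 1.13 ± 0.197 on the log2 scale (SE, limma adjusted p = 0.0183). Ccnb1, the cyclin B that makes Cdk1 active at mitotic entry, read 40.1, 33.5 and 42.8 FPKM in CGG 1 to 3 and 16.01, 14.2 and 21.3 FPKM in CGG-Cit 1 to 3. The groups were again apart, and Ccnb1 fell by 1.14 ± 0.168 (adjusted p = 0.0129), the smallest p of any member. It passed in 14 of 15 alternative fits, the exception being the one without CGG 3 (adjusted p = 0.0578). Ccna2, the cyclin of S phase and early mitosis, fell by 1.04, with means of 34.1 ± 6.65 FPKM for CGG, against 16.5 ± 5.97 for CGG-Cit (SD, n = 3). Foxm1, a transcription factor of the late cycle, fell by 0.84, with 9.21 ± 1.39 and 4.71 ± 0.818 FPKM.

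Cdc25c, a phosphatase that removes an inhibitory mark from Cdk1, was the least abundant member and did not pass. It read 3.63, 3.21 and 3.07 FPKM in CGG 1 to 3 and 1.58, 2.503 and 2.68 FPKM in CGG-Cit 1 to 3 (log2 fold change -0.42, adjusted p = 0.138). The groups did not overlap, but CGG-Cit 3 came near CGG 3. Among the CGG libraries CGG 3 was lowest for Cdc25c, whereas it was the highest of all libraries for 42 of the other members.

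The mitotic kinases outside Cdk1 fell in 4 of 4 cases, at log2 fold changes of -1.27 to -0.902. Plk1, which acts from centrosome maturation to cytokinesis, read 28.7, 24.8 and 31.2 FPKM in CGG 1 to 3 and 8.28, 9.53 and 17.1 FPKM in CGG-Cit 1 to 3. Plk1 was 2.43-fold higher in CGG (log2 fold change -1.27 ± 0.252 SE, adjusted p = 0.0234). Aurka, the Aurora kinase of the spindle poles, read 19.1, 17.1 and 22.03 FPKM against 7.94, 7.97 and 12.3 in the same order of libraries (log2 fold change -0.99, adjusted p = 0.0203). For both genes CGG-Cit 1 and CGG-Cit 2 were near each other and CGG-Cit 3 stood higher, below every CGG library. Plk4, the kinase of centriole duplication, stood at -0.902, and Nek2, a kinase of centrosome separation, at -1.04.

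The chromosomal passenger complex corrects faulty attachments between chromosomes and spindle. Its 4 subunits all fell, at log2 fold changes of -1.13 to -0.96, and were 2.004-fold to 2.32-fold higher in CGG. Birc5, the subunit survivin, read 34.9, 26.1 and 39.8 FPKM in CGG 1 to 3 and 13.7, 11.9 and 20.4 FPKM in CGG-Cit 1 to 3 (log2 fold change -1.09, adjusted p = 0.0258). Cdca8, the subunit borealin, read 24.8, 23.5 and 34.7 FPKM against 11.6, 9.05 and 17.5 (log2 fold change -1.09, adjusted p = 0.0319). In each the lowest CGG value was above the highest CGG-Cit value. The kinase subunit Aurkb averaged 14.2 ± 1.49 FPKM for CGG, against 6.13 ± 2.08 for CGG-Cit, and the scaffold Incenp 23.3 ± 4.29 and 11.6 ± 3.496 FPKM (SD, n = 3).

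Genes of the spindle checkpoint, which holds a cell in mitosis until every chromosome is attached, held the widest range of any role, and 4 of 5 fell. Mad2l1, the checkpoint protein that blocks Cdc20, read 21.1, 16.1 and 22.2 FPKM in CGG 1 to 3 and 10.8, 9.65 and 14.9 FPKM in CGG-Cit 1 to 3. The groups did not overlap, and its log2 fold change of -0.71 (adjusted p = 0.047) was the smallest in size of the members that passed. The kinase Bub1, the kinase Ttk and the Bub1-related Bub1b stood at -1.09, -0.901 and -0.996.

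Bub3, the adaptor that brings Bub1 and Bub1b to kinetochores, did not pass. Bub3 (ENSRNOG00000020643, listed at chromosome 1, 203524426 to 203557337) read 23.2, 23.05 and 23.7 FPKM in CGG 1 to 3 and 22.5, 17.2 and 18.8 FPKM in CGG-Cit 1 to 3. CGG-Cit 1 was just under the CGG libraries, and the CGG libraries were close together (log2 fold change -0.25 ± 0.113 SE, adjusted p = 0.16). Against the geometric mean of the members in the same library, Bub3 stood at 0.45, 0.71 and 0.31 (log2) for CGG, and at 1.71, 1.48 and 0.79 for CGG-Cit, the largest shift of any member. This ratio shows unequal change and is a description, since Bub3 was picked for its small difference.

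At the kinetochore, the protein plate on which microtubules pull, 7 of 7 members fell, at log2 fold changes of -1.27 to -0.86. The Ndc80 complex, which grips the microtubule, is made of the products of Ndc80, Nuf2, Spc24 and Spc25. Spc24 read 20.5, 20.3 and 30.1 FPKM in CGG 1 to 3 and 8.55, 5.92 and 14.5 FPKM in CGG-Cit 1 to 3 (log2 fold change -1.27, adjusted p = 0.0363). Nuf2 read 15.2, 14.1 and 18.04 FPKM against 6.197, 4.18 and 10.6 (log2 fold change -1.14, adjusted p = 0.0394). CGG-Cit 2 was lowest and CGG-Cit 3 highest of the CGG-Cit libraries in both, and neither group reached the other. With Spc25 at -1.24 and Ndc80 at -1.03, the 4 subunits were 2.19-fold to 2.51-fold higher in CGG. Cenpa, the histone variant that marks the centromere, averaged 7.48 ± 1.54 FPKM for CGG, against 3.15 ± 1.35 for CGG-Cit (SD, n = 3). The motor Cenpe stood at -0.95, and Cenpf, a large protein of the outer kinetochore, at -0.86 with the largest adjusted p of the members that passed (0.049).

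Spindle motors and microtubule regulators fell in 6 of 6 cases, at log2 fold changes of -1.15 to -0.91. Tpx2, which starts microtubules near chromosomes and activates Aurora A, read 32.8, 25.1 and 34.5 FPKM in CGG 1 to 3 and 13.1, 10.2 and 19.9 FPKM in CGG-Cit 1 to 3 (log2 fold change -1.08, adjusted p = 0.0293). Kif11, the kinesin that pushes the spindle poles apart, read 22.1, 18.2 and 24.5 FPKM against 7.86, 7.12 and 13.3 (log2 fold change -1.15, adjusted p = 0.0245). The groups were separate for both. The microtubule depolymerase Kif2c stood at -1.13, the chromokinesin Kif4a at -0.996, Hmmr, a spindle assembly protein, at -0.99 and the kinesin Kif20a at -0.91.

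The genes that end metaphase had the largest median fall of any role, -1.18, with 4 of 4 lower. Ube2c, a ubiquitin-conjugating enzyme of the anaphase-promoting complex, read 18.1, 14.9 and 22.8 FPKM in CGG 1 to 3 and 6.71, 4.97 and 9.26 FPKM in CGG-Cit 1 to 3. The groups were apart, and its 2.67-fold difference (log2 fold change -1.31 ± 0.234 SE, adjusted p = 0.0191) was the largest of the members. Pttg1, or securin, which restrains the separating protease, read 35.9, 31.1 and 40.2 FPKM against 11.7, 11.9 and 20.4 (log2 fold change -1.27, adjusted p = 0.0188). Cdc20, an activator of the complex, read 26.1, 25.5 and 27.5 FPKM against 10.7, 8.66 and 17.7 and fell by 1.09 (adjusted p = 0.027). Its CGG libraries lay close together, while CGG-Cit 3 stood well above the other CGG-Cit libraries. Espl1, the protease separase, stood at -1.07.

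Chromosome structure genes included both of the most abundant members, and 4 of 4 fell. Mki67 (ENSRNOG00000028137, listed at chromosome 1, 207993895 to 208020454), which encodes the proliferation marker Ki-67, read 60.1, 46.00 and 75.1 FPKM in CGG 1 to 3 and 25.1, 20.7 and 39.9 FPKM in CGG-Cit 1 to 3. Top2a, the topoisomerase that untangles sister chromatids, read 61.2, 45.5 and 71.9 FPKM against 21.7, 18.99 and 34.9. CGG 2 and CGG-Cit 3 came closest to each other in both, without overlap. Mki67 fell by 1.08 ± 0.271 (SE, adjusted p = 0.0399) and Top2a had a log2 fold change of -1.23 ± 0.258 (adjusted p = 0.0259). The condensin subunits Ncapg and Smc2, which compact chromosomes, fell, with log2 fold changes of -0.86 and -0.79.

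Cytokinesis genes, which build the midzone and the contractile ring, had the smallest median fall of any role, -0.89, and 3 of 5 passed. Prc1, the bundler of midzone microtubules, read 26.9, 23.3 and 29.7 FPKM in CGG 1 to 3 and 12.3, 11.9 and 18.01 FPKM in CGG-Cit 1 to 3 (log2 fold change -0.89, adjusted p = 0.0232). Kif23, the motor of the centralspindlin complex, read 13.1, 10.6 and 15.99 FPKM against 5.19, 5.27 and 9.34 (log2 fold change -0.93, adjusted p = 0.0436). The groups were apart in both. Ect2, the exchange factor that activates RhoA at the cleavage site, stood at -0.92.

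Racgap1, the partner of Kif23 in centralspindlin, read 6.05, 5.63 and 7.68 FPKM in CGG 1 to 3 and 2.18, 2.27 and 5.71 FPKM in CGG-Cit 1 to 3 (log2 fold change -0.85 ± 0.305 SE, adjusted p = 0.101). It was the 1 member whose groups overlapped, with CGG-Cit 3 just above CGG 2. Anln, a scaffold of the contractile ring, read 7.12, 6.36 and 7.37 FPKM against 2.95, 3.69 and 5.77 (log2 fold change -0.67, adjusted p = 0.0699). CGG-Cit 3 was the highest CGG-Cit library for both, and both passed in 1 of 15 alternative fits, the one without it. Cdc25c and Bub3 passed in 0.

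Genes of the same machinery outside the member list were looked at next. Of 125 listed genes 121 were found and 120 tested, of which 54 fell and 0 rose, with a median log2 fold change of -0.62. At an unadjusted p under 0.05, 2 were higher, and voom called 0 higher.

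In the anaphase-promoting complex list, 2 of 17 genes fell and the median was -0.11. Those that fell were Fbxo5, the inhibitor Emi1, at -1.17 (22.9 ± 3.58 FPKM for CGG, against 10.2 ± 4.73 for CGG-Cit, SD, n = 3, adjusted p = 0.0362) and Ube2s, the enzyme that lengthens ubiquitin chains, at -0.65 (128 ± 7.35 and 81.3 ± 12.2 FPKM, adjusted p = 0.0213). Of the 14 core subunits, a set picked after values were seen, 0 passed with limma, at log2 fold changes of -0.27 to 0.04. At an unadjusted p under 0.05, 2 were lower, and voom called 0. Anapc5, the most abundant of them, stood at -0.23 (adjusted p = 0.155). Whether the core differed from Cdc20, Ube2c, Ube2s and Fbxo5, which act on it, was not tested.

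Among the ring complexes of chromosomes, 5 of 17 condensin and cohesin genes fell, with a median of -0.49. The condensin subunit Ncaph read 16.2, 14.1 and 15.8 FPKM in CGG 1 to 3 and 5.61, 5.57 and 8.89 FPKM in CGG-Cit 1 to 3 (log2 fold change -1.12, adjusted p = 0.0156). The groups were apart. Cdca5, or sororin, stood at -1.004 without passing (adjusted p = 0.0506). Of the 5 core subunits of cohesin, which holds sister chromatids together and also folds DNA into loops, 0 passed with limma, at -0.49 to -0.11, although 4 were lower at an unadjusted p under 0.05 and voom called 2 lower. This set too was picked after values were seen. Rad21, the most abundant, averaged 67.9 ± 6.55 and 48.5 ± 7.94 FPKM (adjusted p = 0.0554), and Ncaph2, of condensin II, 36.9 ± 2.996 and 32.1 ± 2.07 FPKM (adjusted p = 0.204).

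Other kinetochore and centromere genes fell in 20 of 28 cases (median -0.82). Cenpw and Cenpt, of the inner kinetochore, fell, with log2 fold changes of -1.22 and -1.204, and Cenpt averaged 7.397 ± 0.756 FPKM for CGG, against 2.702 ± 0.874 for CGG-Cit (SD, n = 3, adjusted p = 0.0153). Mis12, which links the inner to the outer plate, averaged 20.8 ± 3.89 and 24.4 ± 3.49 FPKM (adjusted p = 0.364), and Zwint, of the outer plate, 24.8 ± 2.34 and 20.3 ± 1.57 FPKM (adjusted p = 0.117). Other kinesins and spindle proteins fell in 15 of 19 cases (median -0.91), among them the kinesins Kifc1, at -1.14, and Kif18b, at -1.12, and the spindle protein Tacc3, at -0.99. Numa1, a spindle pole protein that lies in the nucleus between divisions, averaged 25.8 ± 0.709 and 27.8 ± 3.104 FPKM (adjusted p = 0.518).

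Of 13 centriole and augmin genes tested 2 fell (median -0.38), Stil at -0.7995 and Haus8 at -0.79, while the most abundant, Haus4, did not pass (-0.78, adjusted p = 0.0994). Among other regulators of mitotic entry 9 of 19 fell (median -0.65). Cdc25b, a phosphatase that starts Cdk1 activation, averaged 105 ± 12.96 FPKM for CGG, against 45.3 ± 16.6 for CGG-Cit (log2 fold change -1.24, adjusted p = 0.022). Cks2, a Cdk1 subunit, stood at -1.15 and Cdkn3, a phosphatase of CDKs, at -1.205. Of the MuvB core genes Lin9, Lin37, Lin52 and Lin54, picked after values were seen, 0 passed with limma (-0.44 to 0.36), 1 was lower at an unadjusted p under 0.05, and voom called 0. Mybl2, the B-Myb that joins them, fell by 0.99.

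CDK inhibitors and pocket proteins, which restrain the cycle, fell in 1 of 7 cases (median -0.33). Cdkn1a, the inhibitor p21, read 18.2, 26.4 and 27.99 FPKM in CGG 1 to 3 and 73.98, 43.2 and 30.7 FPKM in CGG-Cit 1 to 3. The groups did not overlap, CGG-Cit 1 was far above the rest, and the difference did not pass (log2 fold change 0.93, adjusted p = 0.0931). It passed after rescaling to TPM (adjusted p = 0.0435) and without CGG-Cit 3 (adjusted p = 0.0364). Cdkn1b, the inhibitor p27, averaged 64.7 ± 3.85 and 51.4 ± 4.699 FPKM (SD, n = 3, adjusted p = 0.0642), and Cdkn2c, or p18, fell by 0.89 (adjusted p = 0.0251).

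Genes of DNA replication were lower too, 34 of 40 tested, with a median of -0.81. With limma 0 rose, 0 were higher at an unadjusted p under 0.05, and voom called 0 higher. Pcna, the sliding clamp, averaged 151 ± 14.99 and 90.5 ± 9.91 FPKM (SD, n = 3, log2 fold change -0.73, adjusted p = 0.0169), and Rrm2, which helps make deoxynucleotides, 64.8 ± 14.1 and 29.9 ± 11.04 FPKM (-1.13, adjusted p = 0.0371). Tk1, a thymidine kinase, stood at -1.25 and E2f2, an activating E2F factor, at -1.27. Summed FPKM of the list was 847 to 1106 in CGG and 427 to 624 in CGG-Cit, in the same order of libraries as the mitotic genes. Whether the members' median of -1.03 and this -0.81 differ was not tested.

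**Figure D3:**
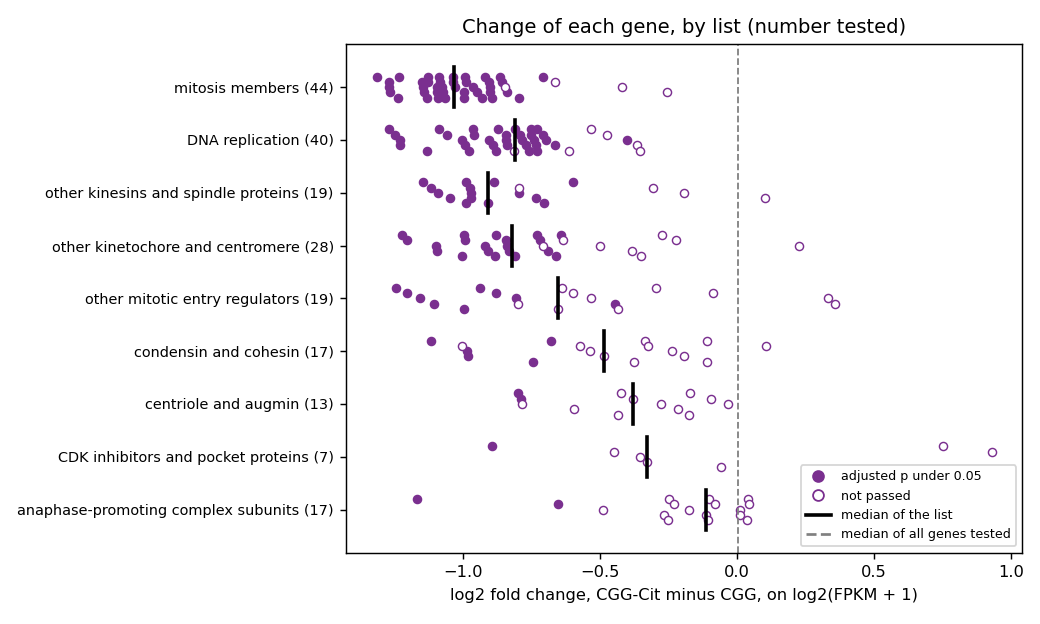
Log2 fold change (x axis, CGG-Cit minus CGG) of each gene tested in the member list and 8 other lists (rows, with the number of genes), filled where the adjusted p was under 0.05. Bars are list medians, from -1.03 for the members to -0.11 for the anaphase-promoting complex list, and the dashed line is the median of all genes tested.

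Promoter letters were compared within the other mitotic genes as well. The cell cycle homology region stood in 31 of 49 windows (63.3%) of genes that fell and in 16 of 54 (29.6%) of genes tested that did not pass. The E2F site showed the reverse order, 11 (22.4%) and 19 (35.2%). These shares are descriptions of lists made by name, with no test.

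Markers of several cell types moved with the mitotic genes. Those of neutrophil precursors fell in 4 of 4 cases (median -1.81), with summed FPKM of 1295 to 1968 in CGG and 273 to 819 in CGG-Cit. They ranked the 6 libraries exactly as the summed mitotic genes did, CGG 3 highest and CGG-Cit 2 lowest. Mpo, the myeloperoxidase made by promyelocytes, stood at -1.75 and Ctsg, or cathepsin G, at -1.82. Erythroid precursor markers fell in 4 of 4 (median -1.36), with sums of 361 to 437 and 103 to 222 FPKM, Alas2 at -1.46 and Hemgn at -1.35. Their sums put the libraries in the same order too, although CGG 1 and CGG 2 were nearly equal (361.5 and 360.6 FPKM). Markers of mature neutrophils, which no longer divide, fell in 4 of 4 tested, S100a9 at -2.101 and S100a8 at -2.16. Their sums were 12420.5 to 13886 and 1948 to 4968 FPKM, and here CGG 2 was the highest library. Ltf, another marker of that list, was near 0 in both groups (0.0784 and 0.0457 FPKM on average) and was not tested.

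B cell precursor markers fell in 5 of 5 (median -1.37), with sums of 54.00 to 75.3 and 12.2 to 28.2 FPKM. CGG-Cit 1 was lowest, also for the surrogate light chain gene Igll1 (-1.81), and Rag1, a recombinase of these cells, fell by 1.21. Osteoblast markers fell in 4 of 5, with sums of 3116 to 3929 and 767 to 1837 FPKM, and CGG-Cit 1 was again lowest. Bglap, or osteocalcin, stood at -1.396 and Ibsp, a bone matrix protein, at -1.197. Skeletal muscle markers, Acta1 and Ckm being the most abundant, fell in 4 of 4, with sums of 4562 to 5087 FPKM for CGG and 26.3 to 212 for CGG-Cit. Their sums also put the 6 libraries in the order of the mitotic genes. Markers of satellite cells, the stem cells of muscle, were low: Myod1 averaged 2.16 FPKM for CGG, passed the filter on low values only through that group and was at 0 in CGG-Cit 1 and 2, and Pax7 averaged 0.283 and 0.0571.

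Macrophage and fibroblast markers went the opposite way. Macrophage markers rose in 4 of 5, with sums of 330.4 to 357 FPKM for CGG and 574 to 892 for CGG-Cit, and Cd68 and Csf1r rose by 1.26 and 0.46. Fibroblast markers rose in 3 of 4 (58.2 to 110.0 and 189 to 288 FPKM), with Mfap5 at 1.55 and the most abundant, Dpt, at 1.76 without passing (adjusted p = 0.054). T cell markers rose in 1 of 4, with sums of 15.5 to 21.4 and 25.1 to 63.9 FPKM, and Cd3g and Cd3e did not pass (adjusted p = 0.172 and 0.0793). Of 2 endothelial markers, Cdh5 and Kdr, 0 passed with limma (adjusted p = 0.248 and 0.0869), 1 was higher at an unadjusted p under 0.05 and voom called 0. The part of any of these cell types in the fall of the mitotic genes was not tested.

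**Figure D4:**
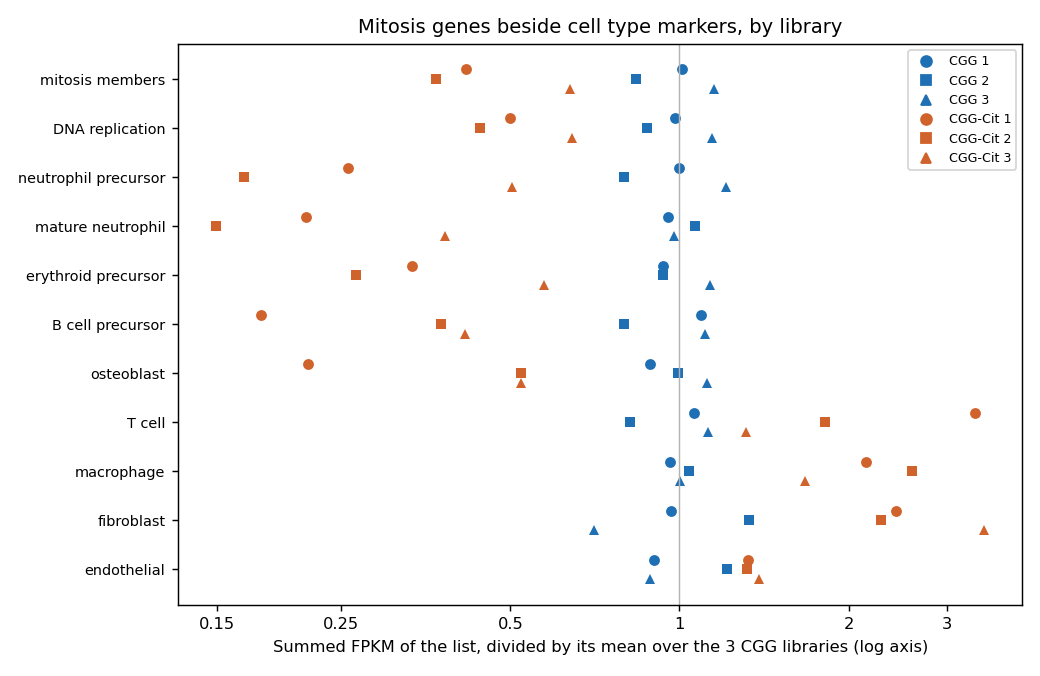
Summed FPKM of the mitotic genes, the replication genes and 9 cell type marker lists (rows) in each library, divided by the mean of the list over the 3 CGG libraries (x axis, log scale), blue for CGG and orange for CGG-Cit. The CGG-Cit points of the mitotic, replication, blood precursor, neutrophil and osteoblast rows lie left of the line at 1, and those of the T cell, macrophage, fibroblast and endothelial rows right of it.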

How the data were processed

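The authors deposited FPKM values for 34045 genes in 6 libraries. Among the tools in the submitters' processing notes, listed without role or order, are featureCounts 1.5.0-p3, HISAT2 2.0.5 and DESeq2 1.20.0, beside the build mRatBN7.2; annotation release and strand setting: not given in the sources used here. Gene coordinates follow the deposited table and carry no build. Its chromosome 1 runs to 282724300, past the last gene of the GRCr8 table (270492571). No such comparison was made with mRatBN7.2, so that build is not attached to the coordinates. The deposited gene lengths, in bases and of other unit than FPKM, turned 100% of values into whole reads within 0.01 reads, 14744207 to 16224920 fragments per library. The library sizes implied by the FPKM were 15223734 to 16780646 and were not these totals. CGG 2 had more fragments than CGG 1 (16224920 and 15054925) but a smaller implied size (15631490 and 15955343). What set these sizes was not tested. Ccna2, Plk4 and Kif20a overlap Exosc9, Mfsd8 and Cdc23 on the opposite strand, and without a known strand setting reads of the pairs cannot be told apart.

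Tests used limma 3.58.1 (R 4.3.3, lmFit and eBayes with trend) on log2(FPKM + 1), with Benjamini-Hochberg adjustment over the 15965 genes whose mean FPKM reached 0.5. This log2 scale understates changes of low genes. Scripts were tested on simulated data. Members and lists were chosen with earlier results of these data known. All 6 values are given for the 2 most abundant members of each role, the 3 largest and 3 smallest changes and members that did not pass. From the other lists the 2 most abundant genes and, except for markers, the 2 with the largest change are named; Mybl2, Ltf, the core subunits and members outside this rule were named with their values seen. Cenpq, Cep152, Haus2, Cdkn2d, E2f1, Cd79a and Pecam1 were not matched by name and are not analysed here. Haus1 was at 0 and not tested. Alternatives were other pseudocounts, filters and scalings, a replicate block, each library left out, voom on the recovered reads and an adjusted p under 0.1.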

Additional observations from a re-analysis of the deposited data

How the results depend on the processing

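All member values kept their sign in the 15 alternative fits, and their median ran from -1.27 to -0.87. Against 40 members that fell, 25 did with TPM scaling, 20 without the filter on low values (22222 genes tested) and 0 to 42 with 1 library left out. TPM scaling moved the median of all genes to 0.16, and the members' median stood at -1.07 relative to it. In single roles and lists the larger changes of calls with TPM scaling were: spindle checkpoint from 4 to 2 lower, kinetochore and centromere from 7 to 3 lower, chromosome structure from 4 to 1 lower, cytokinesis from 3 to 1 lower, condensin and cohesin from 5 to 3 lower, anaphase-promoting complex subunits from 2 to 1 lower, other kinetochore and centromere from 20 to 12 lower, other kinesins and spindle proteins from 15 to 5 lower, centriole and augmin from 2 to 1 lower, other mitotic entry regulators from 9 to 6 lower, CDK inhibitors and pocket proteins from 0 to 1 higher, B cell precursor from 5 to 3 lower, T cell from 1 to 3 higher, osteoblast from 4 to 2 lower and endothelial from 0 to 1 higher. Other mitotic genes fell in 29 cases with TPM scaling and 29 without the filter, against 54, and in 0 to 65 with 1 library left out. Of them 1 was higher with TPM scaling, 1 at an adjusted p under 0.1 and 0 to 1 with 1 library left out, against 0. Replication genes fell in 21 cases with TPM scaling and 24 without the filter, against 34. With 1 library left out 0 to 36 of them fell. Each library other than CGG-Cit 3, when left out, lowered the counts of other mitotic genes and of replication genes. Both counts were 0 without CGG 3 and without CGG-Cit 2. Leaving out a library leaves fewer samples, and the cause of the other changes was not tested. With the replicate block 40 members fell, and same-numbered libraries did not deviate together (correlations of -0.0956 to 0.00165). Differently numbered libraries gave -0.0587 to 0.125. These values cannot show whether the numbers pair the libraries, since deviations within a group are tied by its mean. Of the genes named outside the members, Haus8, Igll1 and Csf1r no longer passed with the block, and Rad21, Cdca5 and Haus4 did (adjusted p = 0.0468, 0.0442 and 0.0473).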
